A study of Mus musculus with 16 samples.

Results

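The genes described here are the ligands and receptors of the VEGF and angiopoietin systems: the ligands Vegfa, Vegfb and Vegfc, their receptors Flt1, Kdr and Flt4, the angiopoietins Angpt1 and Angpt2, and the TIE receptors Tek and Tie1. The rule that picks them lists them by name and uses no measured value, though it was set with earlier results of these data known. They make up 10 of the 55359 gene identifiers in the count files. All 10 were detected in every library, with 67 to 18855 counts per gene and library, and all 10 passed the filter on low counts in each comparison.

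The study measured poly(A) RNA in whole ovaries and whole kidneys of wild-type CBAF1 female mice aged 21 days. Every animal group had received PMSG (5 IU, a gonadotropin that makes follicles grow) for 48 h and then hCG (5 IU, which starts ovulation), and tissue was taken 13 h after hCG. The drug group was injected intraperitoneally with PT-2385 at 7.5 mg/kg every 12 h for 4 days, and the vehicle group with 5% DMSO in saline on the same schedule. Each of the 4 groups (vehicle ovary, PT-2385 ovary, vehicle kidney, PT-2385 kidney) had 4 libraries. No group without gonadotropin was compared, so the vehicle values describe stimulated animals. Whether each library is 1 animal or a pool is not given in the labels, so p-values measure only the spread between these libraries.

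VEGF-A, made by many epithelial and stromal cells, acts on endothelial cells through KDR (VEGFR-2), which carries most of the growth and permeability signal, and through FLT1 (VEGFR-1), which binds VEGF-A tightly and signals weakly. VEGF-B binds FLT1, and VEGF-C acts through FLT4 (VEGFR-3), best known for lymphatic vessel growth. Angiopoietin-1, from mural and mesenchymal cells, activates the receptor TEK (TIE2) and steadies vessels. Angiopoietin-2, released mainly by endothelium, often opposes it, and TIE1 modulates TEK. PT-2385 blocks the pairing of HIF-2α, the product of Epas1, with its partner ARNT, and Vegfa is a classical target of hypoxia-inducible factors. In the ovary, vessels grow into the follicle wall and the forming corpus luteum around ovulation. In the kidney, podocytes supply VEGF-A to the glomerular capillaries.

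To show the promoters of VEGF-A and of its pair of receptors in a study of a HIF-2α inhibitor, the bases before the RefSeq transcription start are printed 5′ to 3′ on the gene's strand (build GRCm38.p6, which is not the build of the count files). Capitals mark the core letters bound by hypoxia-inducible factors, ACGTG or GCGTG, searched on both strands, so that the reverse complements CACGT and CACGC are also marked. All 3 genes are on the minus strand, at chr17:46032378-46032627, chr5:147726012-147726261 and chr5:75978459-75978705. The Kdr run has 247 bases, since the 3 bases nearest the start lie in an annotated exon and are left out. Distances below are counted from the start, not from the end of the printed run.
Vegfa: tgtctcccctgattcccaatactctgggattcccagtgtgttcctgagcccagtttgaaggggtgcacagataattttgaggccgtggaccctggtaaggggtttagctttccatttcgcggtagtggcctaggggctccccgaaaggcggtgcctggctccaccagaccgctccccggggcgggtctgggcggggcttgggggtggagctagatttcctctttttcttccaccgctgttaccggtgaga
Flt1: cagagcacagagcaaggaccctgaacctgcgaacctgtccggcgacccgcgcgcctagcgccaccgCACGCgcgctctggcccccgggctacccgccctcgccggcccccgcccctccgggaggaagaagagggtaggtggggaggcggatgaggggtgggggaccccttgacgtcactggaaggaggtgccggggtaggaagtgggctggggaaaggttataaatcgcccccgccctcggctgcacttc
Kdr: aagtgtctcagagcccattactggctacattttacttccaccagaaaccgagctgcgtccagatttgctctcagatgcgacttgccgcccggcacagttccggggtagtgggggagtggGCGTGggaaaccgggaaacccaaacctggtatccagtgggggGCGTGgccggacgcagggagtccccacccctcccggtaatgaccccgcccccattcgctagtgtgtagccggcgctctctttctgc

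The Flt1 window held 1 core, 184 bases before the start, and the Kdr window held 2, 131 and 89 bases before it. The Vegfa window at this start held none in these letters. A second Vegfa start in RefSeq, inside the transcribed part of the gene, had 2, at 218 and 211 bases before it, and Vegfb had 2, at 237 and 81 bases before its start. The windows of Vegfc, Flt4, Tek and Tie1 held none. The same letters occurred in 38.6% of the 32851 RefSeq promoter windows of 250 bases, so a match is common. Of the 10 genes, 8 had an entry in the promoter table, and Angpt1 and Angpt2 had none. A match describes letters only and is not evidence of binding, and its absence says only that these letters are not in the window.

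Libraries held 12.7 to 43.3 M (1000000) gene counts. The organ labels were checked on marker genes: Foxl2, a granulosa cell factor, was at 69.8 to 110 CPM (counts per M of the library total) in the ovary libraries and at 0 in every kidney library, and Umod, the tubule protein uromodulin, was at 1055 to 1732 CPM in kidney and 0 to 4.11 CPM in ovary. The kidney transcript Kap, named after its values were seen, reached 33.9 CPM in 1 vehicle ovary library, whereas it was at most 0.23 CPM in the PT-2385 ovaries. Epas1, the drug's target, is inhibited at the protein level and its RNA checks nothing; it was at 165 ± 1.32 against 171 ± 15.8 CPM in PT-2385 against vehicle ovaries (mean ± SD, n = 4 each) and at 197 ± 8.14 against 195 ± 9.05 CPM in kidneys. Ovary vehicle replicates 2 and 3 stood apart. Replicate 2 had the highest value of all 8 ovary libraries for 8 of the 10 genes and for 5 of the 5 receptors, and its mean log2 level of 21 pan-endothelial markers was 0.25 above the vehicle mean, while that of 9 pericyte markers was 0.28 above. Replicate 3, whose file carries another number than its label, was 0.15 below the vehicle mean for the endothelial markers and 0.28 below for the pericyte markers. In bulk tissue, fewer cells of a type and less RNA per cell cannot be told apart.

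Vegfa and Vegfb were the most abundant of the 10 genes in both organs, and the other VEGF ligand, Vegfc, had the lowest mean in both vehicle groups. Levels between genes are given as CPM per kilobase of exon (mean ± SD, n = 4 vehicle libraries), since longer transcripts give more reads. In the vehicle ovary Vegfa was at 71.3 ± 8.58, Vegfb at 20.3 ± 0.877 and Kdr at 16.6 ± 1.898, and these 3 did not overlap with their neighbours in the order. Tie1 followed at 11.6 ± 2.05, Flt4 at 8.66 ± 1.04, Tek at 7.23 ± 1.92 and Flt1 at 6.68 ± 0.7204. Angpt2 was at 6.41 ± 0.414, Angpt1 at 4.79 ± 1.64 and Vegfc at 3.403 ± 0.338. From Tie1 down to Vegfc, the ranges of every neighbouring pair overlapped between libraries, so these ranges do not resolve the order of neighbours. Tie1 (9.65 to 14.45) and Flt4 (7.79 to 10.17) still lay above the ranges of Flt1 (5.86 to 7.58), Angpt2, Angpt1 and Vegfc. Within each vehicle ovary library, Tie1 was above Flt4 and Flt4 above Tek.

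In the vehicle kidney Vegfa was at 118 ± 4.58 and Vegfb at 57.8 ± 6.04. Angpt2 at 14.96 ± 0.406, Tek at 14.03 ± 1.35, Kdr at 12.3 ± 0.955 and Tie1 at 11.8 ± 0.259 overlapped each with the next. Flt1 at 7.704 ± 0.308, Angpt1 at 5.799 ± 0.223, Flt4 at 3.502 ± 0.243 and Vegfc at 1.93 ± 0.246 were separate from their neighbours.

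**Figure D1:**
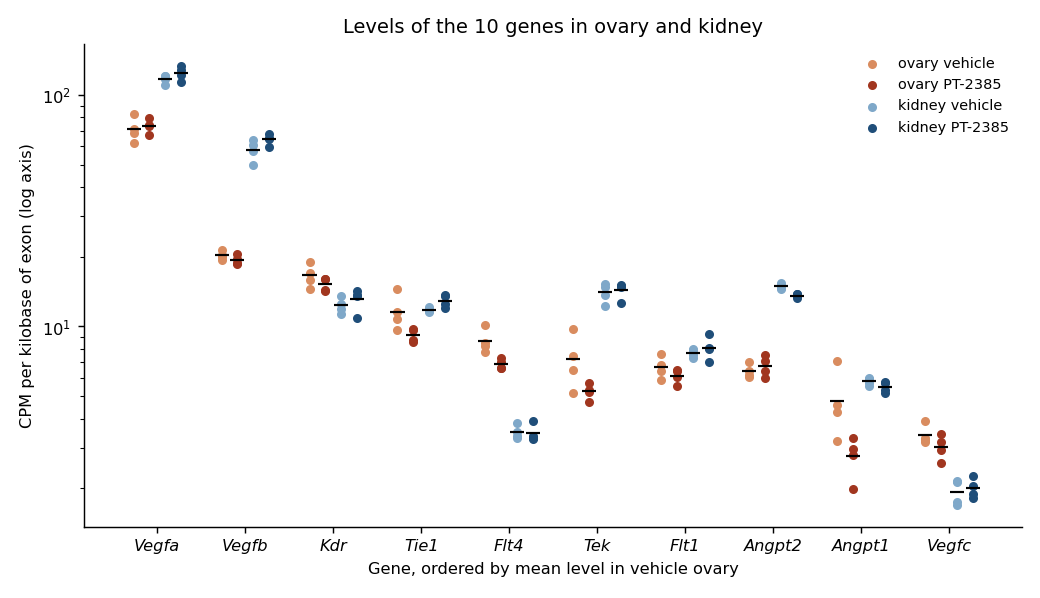
Level of each gene in every library, in CPM per kilobase of exon on a log axis, by organ and treatment; points are libraries and lines are means of 4. Vegfa lies highest in all 4 groups, Vegfb, Tek and Angpt2 lie higher in kidney, and Flt4, Vegfc and Kdr lie higher in ovary.

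Most of the 10 genes differed between the organs, as did most genes. In vehicle animals, 8 of 10 passed an adjusted p of 0.05 (edgeR quasi-likelihood test, Benjamini-Hochberg over all genes tested), against a background of 82.8% of 19977 genes, and 7 of 10 had libraries that did not overlap, against 76.5%. The share of members called is near the background, so it is no result about these genes, and their directions are given as a description. Higher in ovary than in kidney were Flt4, 2.47-fold (95% interval 2.19 to 2.78), Vegfc, 1.76-fold (1.48 to 2.09), and Kdr, 1.35-fold (1.19 to 1.53). Lower in ovary were Vegfb, 0.352-fold (0.318 to 0.3895), Angpt2, 0.428-fold (0.389 to 0.472), Tek, 0.515-fold (0.4197 to 0.631), and Vegfa, 0.607-fold (0.542 to 0.679). Flt1 passed with 0.867-fold (0.771 to 0.974, adjusted p = 0.0232), but its libraries overlapped and 5 alternatives lost the call (adjusted p 0.0574 to 0.0905). Angpt1 (log2 difference -0.28, adjusted p = 0.168) and Tie1 (-0.02, adjusted p = 0.807) did not pass. Without ovary vehicle replicate 2, Angpt1 was called lower in ovary (log2 -0.53, adjusted p = 0.00071). Ovary RNA was isolated on columns and kidney RNA with Trizol, so organ and isolation cannot be told apart.

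Vegfc and its receptor Flt4 were higher in ovary, and so were 5 of 6 lymphatic endothelial markers (Mmrn1, a vessel glycoprotein, by 3.90 and Pdpn, podoplanin, by 2.90 on the log2 scale). The other marker, Prox1, the transcription factor that sets lymphatic identity, was lower in ovary with a log2 difference of -0.85 (adjusted p = 1.90e-08 by edgeR). All 6 were called, where 82.8% of all genes were. Of the 15 other genes of both pathways, 11 were called higher in ovary and 4 lower. Among the higher were Angpt4, a further TEK ligand, by 4.89, Adamts3, which processes VEGF-C, by 2.74, and Ccbe1, its cofactor, by 2.29 on the log2 scale. Of 21 pan-endothelial markers, 12 were called higher and 7 lower in ovary. The part of endothelial content in the differences of the members was not tested.

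In the ovary, none of the 10 genes passed the test for PT-2385 against vehicle. The background was low as well: 9 of 18125 genes passed, 0.0497%, and 13.2% had an unadjusted p under 0.05. The values of the 4 members with the smallest p all lay below vehicle in mean: Flt4, Tie1, Angpt1 and Tek, of which 3 are vessel receptors. They are given library by library here in CPM, scaled within the organ, in the order of replicates 1 to 4.

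Flt4, the VEGF-C receptor, was at 55.2, 69.2, 52.01 and 57.3 CPM in the vehicle ovaries and 44.5, 47.4, 44.6 and 49.2 CPM in the PT-2385 ovaries. It was the single member whose ovary libraries did not overlap, against 6.95% of genes tested. The mean was 46.4 ± 2.31 CPM under PT-2385 and 58.4 ± 7.48 CPM under vehicle (SD, n = 4 each), a fold of 0.795 (95% interval 0.7002 to 0.904), and the log2 difference was -0.33 ± 0.0849 (SE) with an adjusted p of 0.164 by edgeR.

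Angpt1, the TEK ligand, had 19.7, 32.8, 14.5 and 21.1 CPM in vehicle and 12.8, 15.2, 9.08 and 13.5 CPM under PT-2385. Vehicle libraries spread widely (coefficient of variation 35.1%), with replicate 2 the highest, and replicate 3 of vehicle lay below replicate 2 of PT-2385. Means were 12.6 ± 2.56 and 22.01 ± 7.73 CPM for PT-2385 and vehicle, a fold of 0.575 (0.393 to 0.842), and the adjusted p was 0.235. Counting did not use strand, and 17.3% of the exon length of Angpt1 overlaps Gm17473, a gene on the opposite strand. Reads in the shared part cannot be assigned to either gene by strand in these counts.

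Tek was at 32.9, 49.8, 25.96 and 38.05 CPM in vehicle and 27.04, 28.8, 23.9 and 26.4 CPM under PT-2385. Replicate 3 of vehicle lay within the PT-2385 range, so the groups overlapped. The fold was 0.724 (0.5603 to 0.935) with an adjusted p of 0.283. Tie1 was at 52.8, 71.5, 46.9 and 56.7 CPM in vehicle and 47.8, 47.2, 41.95 and 42.6 CPM under PT-2385, with the same vehicle library inside the treated range. Its fold was 0.787 (0.665 to 0.931) with an adjusted p of 0.235.

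Vegfa, the main ligand, had 272, 263, 234 and 315 CPM in vehicle ovaries and 303, 278, 282 and 255 CPM in PT-2385 ovaries, with full overlap. The log2 difference was 0.04, with a 95% interval of -0.16 to 0.24, that is a fold of 0.898 to 1.18. Kdr, its main signalling receptor, was at 108, 123, 92.1 and 102 CPM in vehicle and 91.4, 102, 91.6 and 102 CPM under PT-2385, a log2 difference of -0.13 (interval -0.32 to 0.05). Angpt2 was at 25.9 ± 2.59 against 24.6 ± 1.64 CPM (log2 0.08), Vegfb at 26.7 ± 1.21 against 28.1 ± 1.43 (log2 -0.07), Vegfc at 7.95 ± 0.957 against 8.99 ± 0.955 (log2 -0.17) and Flt1 at 72.1 ± 5.08 against 78.9 ± 9.13 (log2 -0.13). Of the 10 genes, 8 had a negative log2 difference, and the median was -0.15, against -0.003 over all genes tested, of which 49.2% were positive.

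**Figure D2:**
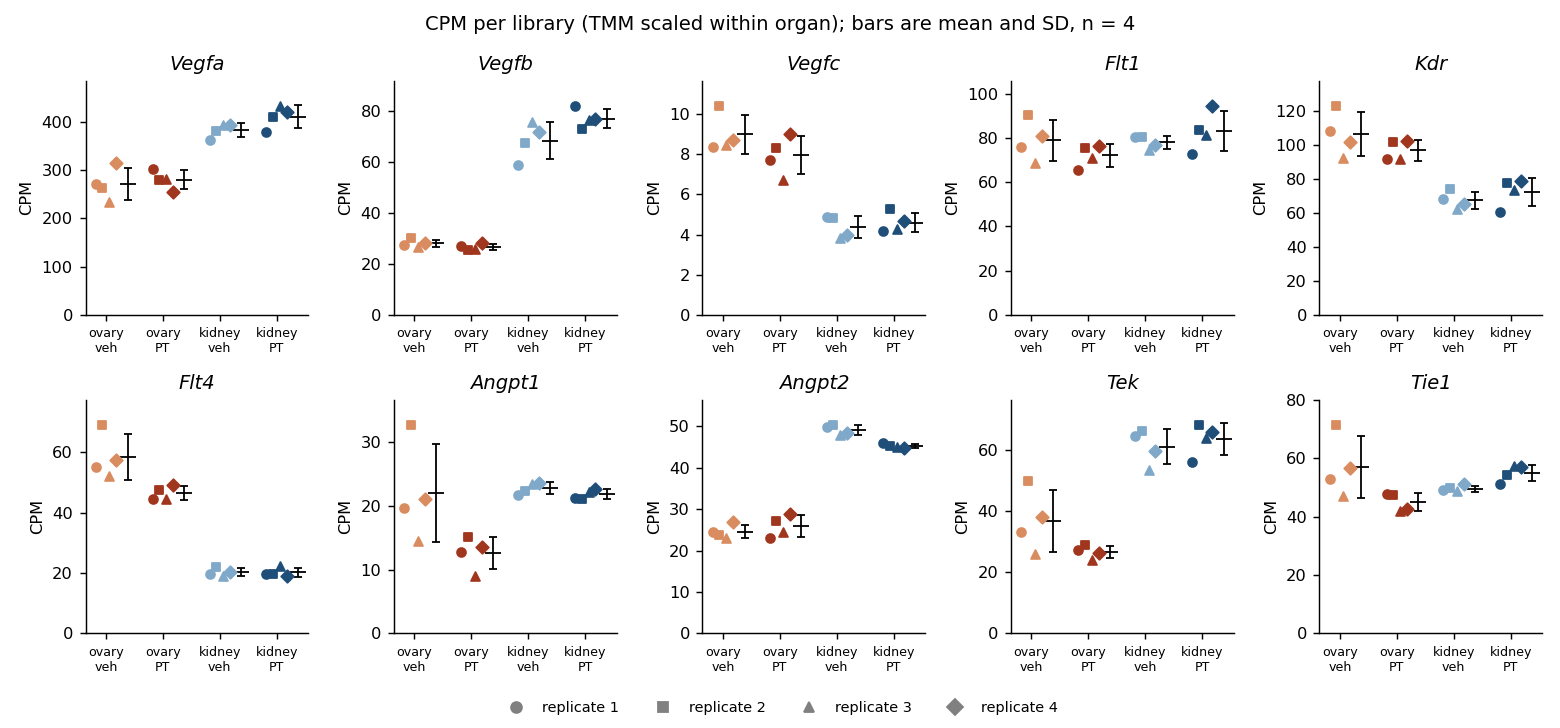
CPM of each gene in every library, scaled within each organ, with a panel per gene and axes from 0. Symbols mark the replicate number, which was not taken as a pairing of libraries, and bars the mean ± SD of 4. Flt4 in the ovary does not overlap between groups, ovary vehicle replicate 2 is the highest ovary library for 8 of 10 genes, and Angpt2 and Tie1 separate in kidney.

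The ovary calls depended on the libraries and on the fit. Without vehicle replicate 3, 1090 of all genes were called rather than 9, and Flt4 (adjusted p = 0.0242), Tek (0.0303) and Tie1 (0.0325) were called lower under PT-2385. Without vehicle replicate 2, the log2 difference was -0.24 for Flt4, -0.54 for Angpt1, -0.28 for Tek and -0.22 for Tie1, and none passed, with a median over the 10 genes of -0.08. Leaving out any of the other 6 ovary libraries gave no call among the 10. The other tool, DESeq2, called Flt4 (adjusted p = 0.0393) and Angpt1 (0.0194). In edgeR, Flt4 (0.0114) and Tie1 (0.0202) passed with no filter on low counts, and Flt4 (0.0403) and Angpt1 (0.0482) in one fit over all 16 libraries. With the replicate number as a block in edgeR, Flt4 (0.0369), Angpt1 (0.00199) and Tek (0.0493) passed. Whether that number pairs the libraries is not settled by these data.

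Of the 15 other genes of the pathways, 0 passed and 3 were positive (median -0.08). Ptprb, the phosphatase VE-PTP that acts on TEK and KDR, was at 65.1 ± 4.52 against 84.2 ± 15.7 CPM under PT-2385 against vehicle (adjusted p = 0.223). Of 15 genes that respond to VEGF or mark growing vessel tips, 0 passed, and 9 were positive (median 0.03). Rcan1, an inhibitor of calcineurin induced by VEGF-A, was at 37.3 ± 3.51 against 28.96 ± 2.79 CPM (adjusted p = 0.141) and Egr3, an early transcription factor, at 17.3 ± 3.78 against 11.8 ± 3.44 CPM (adjusted p = 0.324). Of 21 pan-endothelial markers 0 passed and 4 were positive (median -0.11). The summed CPM of these 21 ran from 1057 to 1176 in the PT-2385 ovaries and from 1133 to 1422 in vehicle ovaries, and none of the 21 was at 0 in a group. Pericyte markers had 0 of 9 called and 1 positive (median -0.11), with sums of 549 to 618 and 571 to 817 CPM. Lymphatic markers had 0 of 6 called and 1 positive (median -0.15), with sums of 237 to 279 and 257 to 284 CPM. Without vehicle replicate 3, 2 of the 9 pericyte markers and 1 of the 21 endothelial markers were called lower as well. The part of these cell types in the members' differences was not tested.

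In the kidney, none of the 10 genes passed either, although 982 of 17763 genes did, 5.53%, and 23.1% had an unadjusted p under 0.05. The members' differences were small and mostly positive: 8 of 10 had a positive log2 difference, and the median was 0.07, against 0.007 over all genes. Libraries did not overlap for 2 of 10, Tie1 and Angpt2, against 13.3% of all genes. That count is near the background, so it is no result about the members, and the values are given as a description. The count over all genes fell to 269 without vehicle replicate 2 and to 531, 240 and 287 without PT-2385 replicates 1, 3 and 4, and no member passed in any of these. Without vehicle replicate 3, Vegfb did (adjusted p = 0.0458).

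Tie1 had 49.1, 49.7, 48.6 and 51.01 CPM in vehicle kidneys and 51.3, 54.1, 57.4 and 57.03 CPM in PT-2385 kidneys. All PT-2385 libraries were above all vehicle libraries, with a fold of 1.11 (1.03 to 1.196) and an adjusted p of 0.0929 by edgeR. Angpt2 had 49.9, 50.5, 48.03 and 48.4 CPM in vehicle and 46.00, 45.2, 45.1 and 44.9 CPM under PT-2385. All PT-2385 libraries were below all vehicle libraries, at a fold of 0.921 (0.859 to 0.986) and an adjusted p of 0.139.

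Vegfb was at 58.8, 67.2, 75.6 and 71.8 CPM in vehicle and 81.9, 73.01, 76.3 and 76.96 CPM under PT-2385. One treated library fell inside the vehicle range, and the fold was 1.13 (1.02 to 1.25, adjusted p = 0.1298). Vegfa was at 362, 381, 394 and 394 CPM in vehicle and 378, 410.2, 432 and 420.5 CPM under PT-2385, overlapping in part, with a fold of 1.07 (0.996 to 1.16, adjusted p = 0.245). Kdr was at 72.5 ± 8.22 against 67.5 ± 4.95 CPM (log2 0.10), Flt1 at 83.1 ± 8.94 against 78.01 ± 2.87 (log2 0.09) and Tek at 63.4 ± 5.23 against 60.9 ± 5.68 (log2 0.05). Flt4 at 20.2 ± 1.55 against 20.2 ± 1.32, Vegfc at 4.597 ± 0.4899 against 4.37 ± 0.544 and Angpt1 at 21.8 ± 0.786 against 22.8 ± 0.918 CPM had log2 differences of 0.00, 0.05 and -0.06.

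Endothelial and podocyte markers were higher in part in the PT-2385 kidneys. Of 21 pan-endothelial markers, 3 passed, all higher under PT-2385, and 20 were positive (median 0.17): Sox18, a transcription factor, at 19.4 ± 2.73 against 13.7 ± 1.22 CPM (adjusted p = 0.00702), Cldn5, a tight junction protein, at 16.1 ± 0.384 against 13.4 ± 0.603 CPM (0.0357) and Myct1 at 10.4 ± 0.628 against 8.37 ± 0.141 CPM (0.0416). Of 9 podocyte markers 3 passed, all higher, and 9 were positive (median 0.19): Cdkn1c, a cell cycle inhibitor, at 28.9 ± 1.28 against 22.9 ± 2.66 CPM (adjusted p = 0.0176), Wt1, a transcription factor, at 31.6 ± 1.02 against 26.3 ± 2.09 CPM (0.0251) and Synpo, an actin-binding protein, at 107 ± 7.92 against 87.6 ± 9.28 CPM (0.0392). Their summed CPM ran from 823 to 950 against 670 to 811 in vehicle. Of the 15 other genes of the pathways, 0 passed and 9 were positive (median 0.03). Of the 15 VEGF response and tip genes, 0 passed and 13 were positive (median 0.14), with Aplnr, the apelin receptor, at 13.96 ± 1.32 against 11.3 ± 0.961 CPM (adjusted p = 0.0523). In one fit over all 16 libraries, 0 of the 21 endothelial and 0 of the 9 podocyte markers passed. The calls also depended on single libraries: the podocyte markers called were 0 without PT-2385 replicate 3 or 4 and 1 without vehicle replicate 2, with 9 of 9 positive each time. The endothelial markers called were 1 without PT-2385 replicate 1, 3 or 4 or vehicle replicate 1 or 2, with 18 to 20 of 21 positive. The part of endothelial and podocyte content in the members' differences was not tested.

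**Figure D3:**
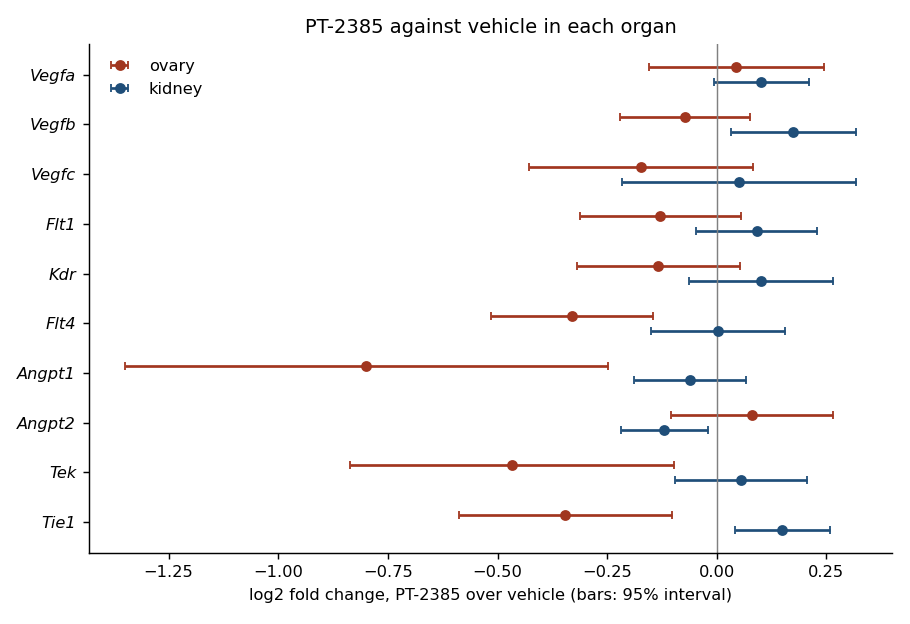
Log2 fold change of PT-2385 over vehicle with its 95% interval (edgeR), for ovary and kidney, n = 4 libraries a group. Intervals exclude 0 for Flt4, Angpt1, Tek and Tie1 in the ovary and for Vegfb, Tie1 and Angpt2 in the kidney, before adjustment over all genes, and none passed after it.

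The difference between the organs' responses was tested in 1 model over all 16 libraries. The labels do not say whether ovary and kidney libraries come from the same animals. This model and the organ comparison treated all 16 as independent. None of the 10 genes passed, against 0.19% of 19977 genes, while 6 had an unadjusted p under 0.05 and 12% of all genes did. Tie1 was closest: its ovary response minus its kidney response was -0.47 on the log2 scale (interval -0.74 to -0.21, adjusted p = 0.127 by edgeR). Tek had -0.50, Angpt1 -0.72, Flt4 -0.31 and Vegfb -0.23, and Angpt2 had the opposite sign, 0.22. Of the 21 pan-endothelial markers, 0 passed and 21 had a negative difference (median -0.27, against -0.22 over the 10 members). Of these markers, 9 had an unadjusted p under 0.05 by edgeR. A lower response in ovary than in kidney was thus not particular to the members, and the part of endothelial content was not tested. Without ovary vehicle replicate 3, Tie1 (adjusted p = 0.00964), Tek (0.0331) and Angpt1 (0.0403) passed. Without ovary vehicle replicate 2, the differences were smaller, -0.35 for Tie1, -0.32 for Tek and -0.46 for Angpt1. Over all genes, calls ran from 0 to 813 when leaving out each library, against 38 with all 16.

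The balance of the angiopoietins, which act on the same receptor with often opposite effect, did not overlap between the ovary groups. The ratio of Angpt2 to Angpt1 (CPM per kilobase) was 1.49, 0.871, 1.904 and 1.53 in vehicle ovaries and 2.17, 2.15, 3.24 and 2.55 under PT-2385, with no overlap. On the log2 scale the difference was 0.83 (exact permutation p = 0.0286, the smallest that 4 against 4 libraries can give, adjusted over 8 ratio tests 0.229), and it was 0.61 without ovary vehicle replicate 2. Most of it lay in Angpt1 (log2 -0.80) rather than in Angpt2 (0.08). The wide vehicle spread and the exon overlap of Angpt1 therefore limit the ratio too. The share of other gene pairs whose ratio did not overlap was not computed. In kidney the ratio was 2.74, 2.698, 2.45 and 2.45 in vehicle and 2.58, 2.57, 2.43 and 2.36 under PT-2385, a log2 difference of -0.05 (exact permutation p = 0.343). The other 3 ratios overlapped in both organs. Vegfa to Flt1, ligand to decoy-like receptor, differed by 0.18 in the ovary and 0.02 in kidney on the log2 scale. Kdr to Flt1 differed by -0.003 and 0.01, and Tek to Tie1 by -0.10 and -0.09. None of the 8 passed after adjustment, which says little, since at least 5 of them would have to reach the smallest exact p of 0.0286 for any to pass.

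**Figure D4:**
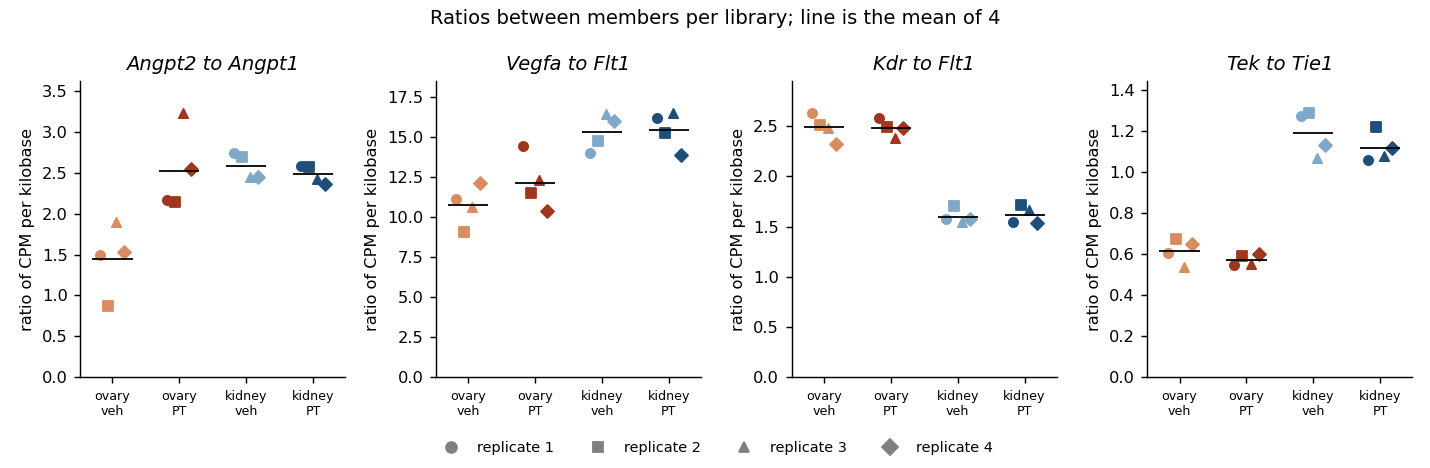
Ratio of 4 pairs of genes in every library, in CPM per kilobase, axes from 0, lines at the mean of 4. Angpt2 to Angpt1 is higher in every PT-2385 ovary than in every vehicle ovary, and the other ratios overlap.

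Set against the mean log2 CPM of 21 pan-endothelial markers, a rough measure of endothelial RNA, 2 of the 6 members compared did not overlap between ovary groups, where 5.41% of all genes tested did not on the same scale. In kidney 1 of 6 did not overlap, against 29.1% of all genes, so that count is no result about the members. Both shares cover genes of every cell type, so they are only a loose background for endothelial genes. The marker mean itself differed by -0.12 in the ovary (exact permutation p = 0.286) and by 0.17 in the kidney (exact permutation p = 0.0286, no overlap). In the ovary, Flt1 and Kdr relative to the markers differed by -0.003 and -0.01. Flt4 relative to the markers was 0.73, 0.72, 0.70 and 0.70 in vehicle and 0.40, 0.52, 0.57 and 0.56 under PT-2385, a log2 difference of -0.20 with no overlap. Tie1 gave 0.67, 0.76, 0.55 and 0.68 and 0.50, 0.51, 0.48 and 0.35, a difference of -0.21, also with no overlap, and Tek differed by -0.31 with overlap. The exact permutation p was 0.0286 for Flt4 and Tie1 (adjusted over 12 tests 0.114) and 0.0571 for Tek (0.137).

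In the kidney, Angpt2 relative to the markers was 0.92, 0.87, 0.82 and 0.81 in vehicle and 0.63, 0.62, 0.50 and 0.52 under PT-2385, a difference of -0.29 with no overlap (exact permutation p = 0.0286, adjusted 0.114). Angpt2 alone was already lower, and the marker mean already higher, in every PT-2385 kidney than in every vehicle kidney. The separation of their difference and its p were thus fixed in advance and add nothing about Angpt2. Tie1, which lay above vehicle in every treated kidney, differed by -0.02 once set against the markers. Flt4 differed by -0.17, Tek by -0.11, Flt1 by -0.08 and Kdr by -0.07. None of the 12 passed after adjustment, and at least 7 at the smallest exact p would have been needed.

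**Figure D5:**
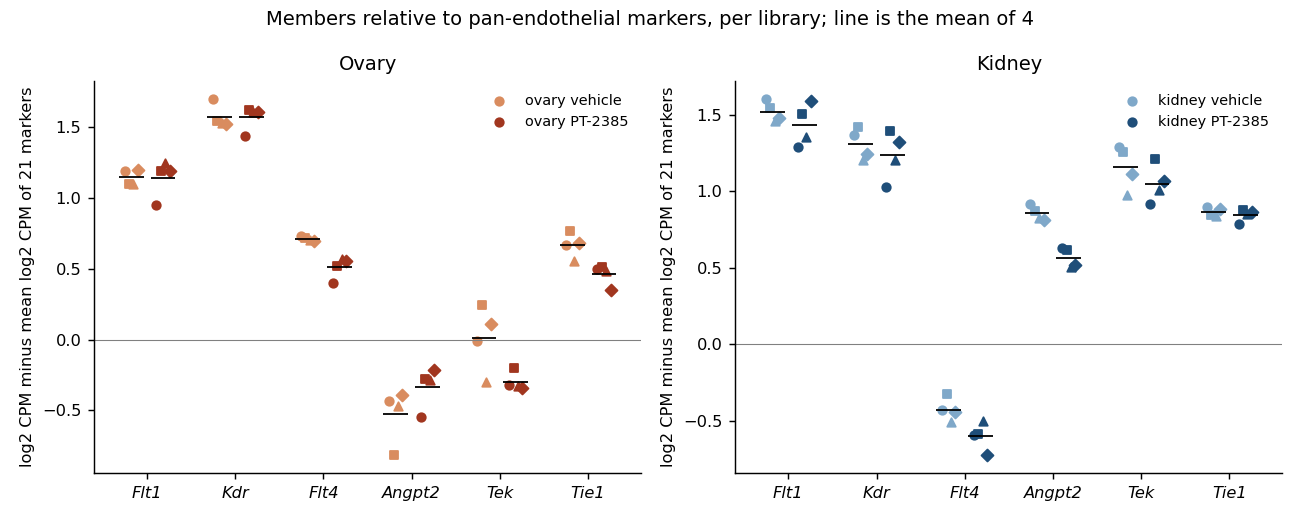
Log2 CPM of 6 members minus the mean log2 CPM of 21 pan-endothelial markers in every library, by organ and treatment, lines at the mean of 4. In the ovary Flt4 and Tie1 separate between groups, and in the kidney Angpt2 does, as Angpt2 and the marker mean each did alone.

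The genes whose levels ran most alike to Vegfa, Kdr and Angpt2 over the 8 libraries of an organ are a description of these libraries, with no p, since the libraries share treatment and tissue composition. In kidney, Vegfa ran with 4933434E20Rik (Pearson r 0.985) and Sv2a (0.977). Kdr ran with Sike1 (0.953), Zfp160 (0.947) and Plxnd1 (0.946) there, and Angpt2 with Selenop (0.988), Erc2 (0.987) and Gm2a (0.987). In the ovary, Vegfa ran with Cklf (0.970), Insig2 (0.951) and Tgds (0.942), Kdr with C330018D20Rik (0.992), Txndc16 (0.986) and Ppm1h (0.977), and Angpt2 with Slc35b4 (0.919), Trmt12 (0.915) and Il13ra1 (0.911). These are among the top 3 of 11323 candidate genes in ovary and 11346 in kidney, so their r is high by selection.

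In the genome (GRCm39), Vegfa is at chromosome 17, 46327919 to 46343295, Flt1 at chromosome 5, 147498414 to 147662821, Kdr at chromosome 5, 76093487 to 76139118 and Flt4 at chromosome 11, 49500090 to 49543566. Angpt1 is at chromosome 15, 42288119 to 42540373, Angpt2 at chromosome 8, 18740279 to 18791578, Tek at chromosome 4, 94627526 to 94763213 and Tie1 at chromosome 4, 118328388 to 118347258. Vegfb is at chromosome 19, 6959841 to 6965019 and Vegfc at chromosome 8, 54530641 to 54640131. Counts were summed over exons, and apart from Angpt1 no member's exons overlapped another gene.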

How the data were processed

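Gene counts were deposited as 1 table per library. The authors counted reads over exons with featureCounts 2.0.6 and GENCODE vM27, without a strand option, per the file headers; STAR, FastQC and the GRCm39 build are named in the submitters' processing notes. Library kits were stranded per the labels' protocols. Symbols from the reference tables matched 52083 identifiers (94.1%).

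Counts were filtered (filterByExpr), TMM-scaled and tested with edgeR 4.0.16 (robust quasi-likelihood, R 4.3.3), with p-values adjusted by Benjamini-Hochberg over all genes tested, at a threshold of 0.05. Drug comparisons used the 8 libraries of an organ, and the organ comparison and interaction all 16. DESeq2 1.42.0, other filters, scalings, a replicate block and leave-one-out fits were alternatives. The pipeline was tested on simulated data. Ratios and marker-relative values used log2 CPM (prior count 2) and 2-sided exact permutation tests over 70 groupings.

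The named genes were the 10 members, up to 3 of each list with the smallest p, Epas1, and the 3 genes with a mean of at least 5 CPM most correlated with Vegfa, Kdr and Angpt2, of which 1 is not reported here. Kap and Prox1 were named outside this rule, after their values were seen. Members and lists (pathway, endothelial, lymphatic, pericyte, podocyte, granulosa, theca, tubule and blood cell genes) were chosen with earlier results of these data known. No 2 libraries of a group agreed within counting noise. Intervals cover the spread between libraries.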

Additional observations from a re-analysis of the deposited data

Results flagged for a closer look

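Each gene was checked in each of the 4 groups for a library far from the other 3, which makes 40 groups, and chance marks about 1 in 20 of them. One stood out: Vegfc in ovary vehicle replicate 2 was at 10.4 CPM, whereas the other vehicle ovaries were at 8.38 to 8.72 CPM. The same library was the highest of the ovaries for 8 of the 10 genes.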

How the results depend on the processing

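Of 838 alternative values of single genes and ratios, 781 kept their direction and their side of the threshold. Another 31 changed sign, 21 passed where the value reported did not and 5 lost the call. The total includes ratios and marker-relative values with a library left out. With so few libraries their exact permutation p cannot fall below the threshold, so their side of it was fixed in advance. Only their direction could change, so that part of the 781 says nothing about the calls. Genes called in the ovary numbered 9 in the report, 322 with DESeq2, 330 with no filter on low counts, 395 with the replicate block, 1090 without the library whose file name deviates, 325 in one fit over all 16 libraries, and 0 to 1090 when leaving out each library, the deviating one included. In kidney they numbered 982, then 1761 with no filter, 240 without the deviating library, 286 in the fit over all 16, 1274 with the replicate block and 240 to 1370 when leaving out each library. For the interaction they numbered 38, then 20 with median-ratio size factors, 304 with DESeq2, 167 with no filter, 378 without both deviating libraries, 52 with the replicate block and 0 to 813 when leaving out each library. The cause of these shifts was not tested. The organ comparison gave 16399 to 16708 when leaving out each library.

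Replicate numbers did not pair the samples: correlations of deviations ran from -0.172 to 0.236 in ovary and from -0.0640 to 0.0522 in kidney. With the block, Flt4 (adjusted p = 0.0369), Angpt1 (0.00199) and Tek (0.0493) were called in the ovary. Vegfb in kidney was called with no filter (0.0452) and without kidney vehicle replicate 3 (0.0458). The Tie1 interaction was called with DESeq2 (0.0300), no filter (0.0135) and without both deviating libraries (0.0305).

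Values near 0 changed sign: Vegfa in ovary (-0.019 without the deviating library, -0.019 to 0.125 leaving out each), Flt4 in kidney (-0.060 without the deviating library, -0.013 in the fit over 16, -0.060 to 0.047), Tie1 between organs (0.021 with no filter, 0.054 without the deviating library, -0.143 to 0.056), and, relative to the marker median rather than mean, Flt1 and Kdr in ovary (0.020 and 0.018). When leaving out each library, so did Vegfc (-0.0030 to 0.105) and Tek (-0.0025 to 0.109) in kidney, the Vegfa interaction (-0.097 to 0.042), Kdr to Flt1 in ovary (-0.035 to 0.025) and kidney (-0.015 to 0.043), Vegfa to Flt1 in kidney (-0.026 to 0.066), and Flt1 (-0.036 to 0.061) and Kdr (-0.022 to 0.039) relative to the markers in ovary. With 4 libraries a group, the smallest exact p is 0.0286.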

Other observations

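Markers of the other cell types were read in the same fits. In the ovary, 0 of 12 granulosa and luteinising cell markers passed for PT-2385 against vehicle (median log2 difference -0.01), 0 of 5 theca markers (-0.05), 0 of 10 blood cell markers (-0.17, 10 of 10 negative) and 0 of the 2 tubule markers tested (0.17). Those 2 went opposite ways. Aqp2 was at 33.0 ± 0.804 CPM under PT-2385 and 21.0 ± 3.64 CPM under vehicle (log2 0.65, adjusted p = 0.0554 by edgeR), without overlap, and Lrp2 had a log2 difference of -0.31. In kidney, 0 of 7 tubule markers passed (-0.06), and 1 of 10 blood cell markers did, where 5.53% of all genes passed. That count is near the background, so it is no result about blood cells. It was Csf1r, the receptor that marks macrophages, lower under PT-2385 with a log2 difference of -0.27 (adjusted p = 0.0251 by edgeR). The call was lost without PT-2385 replicate 2 or 4, without vehicle replicate 2 and in one fit over all 16 libraries. Of the 10 blood cell markers, 7 were negative and 3 positive (median -0.08), and Adgre1 (-0.26) and Ptprc (-0.13) were not called. The 6 lymphatic markers had a median of -0.06 in kidney with 0 called, and the 9 pericyte markers 0.07 with 0 called. Of the 9 podocyte markers, 8 were tested in ovary and 0 passed (-0.03).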
